A study of Homo sapiens with 40 samples.

Results

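SETD2 knockout (KO) cells held in 10 nM talazoparib were sampled late and early, and 2 libraries of day 26 were set against 2 libraries of day 5. These are 4 of the 40 RNA sequencing libraries of the series, chosen by their labels for line, drug, dose and day. The cells are 786-0, an established line of human clear cell renal cell carcinoma, in 1 form labelled SETD2 KO and 1 form labelled SETD2 WT. Talazoparib (BMN673, written BMN in the labels) inhibits the PARP enzymes, and neither group received the DNA methyltransferase inhibitor DAC (decitabine). Day 16 of the same arm, also with 2 libraries, gives the step between. For comparison, 2 libraries each were used of WT cells in 10 nM BMN at days 26 and 5, of KO cells in 100 nM DAC at days 26 and 5, and of untreated KO cells at day 0. Untreated cells were sampled at day 0 alone, so time in culture and time under drug cannot be told apart. Nothing in the labels tells if replicates came from separate cultures. The p-values measure the spread between the 2 libraries of a group, pooled over all 40 libraries of the series, and that spread may be technical. A single KO line was set against a single WT line, and the labels do not say whether either is 1 clone.

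PARP1 and PARP2 bind breaks in DNA and build chains of ADP-ribose that call in repair factors. Talazoparib blocks that activity and holds the enzymes on the break, which becomes a barrier to the replication fork and is dealt with by homologous recombination. SETD2 places the third methyl group on lysine 36 of histone H3 in transcribed genes, a mark tied to recombination repair. Loss of VHL, a hallmark of this tumour type, leaves the hypoxia-inducible factors active in normal oxygen. Damaged cells commonly raise p53 targets that halt the cycle, and cells that regain growth turn to replication and mitosis genes.

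The 4 libraries held 21914622 and 20384579 counts at day 26, against 19505542 and 19613332 counts at day 5. Markers of clear cell renal carcinoma lines summed to 4424 to 4541 counts per 1000000 counts (CPM, here over total counts and elsewhere after TMM scaling) at day 26 and 5048 to 5106 CPM at day 5. Most of these sums was VIM, with 3258 and 3321 CPM at day 26 and 3606 and 3624 CPM at day 5. The tubule transcription factor gene PAX8 among them had 7440 to 8182 counts a library. By the test given below, 5 of the 9 markers fell and 0 rose, against 9.38% and 8.95% of all genes. Of 13 blood and endothelial markers, 8 were at 0 in all 4 libraries, including PTPRC, CD3E and PECAM1, and the list summed to 1.42 to 1.46 CPM at day 26 against 0.974 to 1.43 CPM at day 5. The 9 fibroblast and mural markers summed to 15.2 to 17.3 CPM at day 26 and to 18.3 to 18.7 CPM at day 5, with DCN and PDGFRA at 0. The targeted gene, SETD2, lies on the minus strand of chromosome 3 at 47016429 to 47164113 (GRCh38; ENSG00000181555) and had 149 and 149 CPM at day 26, against 121 and 124 CPM at day 5. It had 141 and 113 CPM in untreated KO cells at day 0 and 155 and 152 CPM at day 16, and WT cells under BMN had 179.9 and 169.9 CPM at day 26, against 133 and 134 CPM at day 5. The gene count therefore gives no view of the edit that makes the line a knockout.

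Of 22527 genes tested, 4130 changed between the days (18.3%), 2017 higher (8.95%) and 2113 lower (9.38%) at day 26 than at day 5. A gene was called at a Benjamini-Hochberg adjusted p below 0.05 in edgeR's quasi-likelihood test. The large changes were mostly falls, with 338 genes at least 2-fold lower and 57 at least 2-fold higher (1.75% of genes in all). The count fell to 2084 without day 26 replicate 1, 2662 without day 26 replicate 2, 2360 without day 5 replicate 1 and 2222 without day 5 replicate 2. Among the genes that fell most were the secreted kinase gene FAM20C, the Wnt receptor gene FZD8, the chondroitin synthesis gene CHPF, the pattern receptor gene CLEC4E, the adipokine gene C1QTNF1 and the p53 targets GDF15 and CDKN1A. Among the rises of the same rank were the arginine transporter gene SLC7A2, the matrix gene CCDC80, INSYN2B and the scavenger receptor gene MSR1.

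The change over days moved with the GC content of the genes. Across 12016 genes, the log2 difference of day 26 and day 5 had a Pearson r of -0.563 with GC content (a description across genes, which are not independent replicates and share the 4 libraries). Genes of at most 41.3% GC had a median log2 change of 0.12, and those of at least 57.1% GC one of -0.33. The 2 libraries of a group also differed along GC content, with r of -0.362 between the day 26 replicates and -0.17 between the day 5 replicates. The same slope over days was seen in WT cells under BMN (r = -0.536) and in KO cells under DAC (r = -0.49). A second fit took out a smooth trend of each library on GC content. It called 3929 genes (17.4%), 2256 higher (10%) and 1673 lower (7.43%), and 1402 rises and 1143 falls were called in both fits. Of the falls, 8 became rises with the correction, and none of the rises became a fall. Whether the slope is of the cells or of library preparation was not tested. Below, a corrected log2 value stands beside the uncorrected one where it ends or adds a call, turns a direction or differs by over 1.5 times. Corrected counts are given for most lists, and a count printed without one may still differ.

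**Figure D1:**
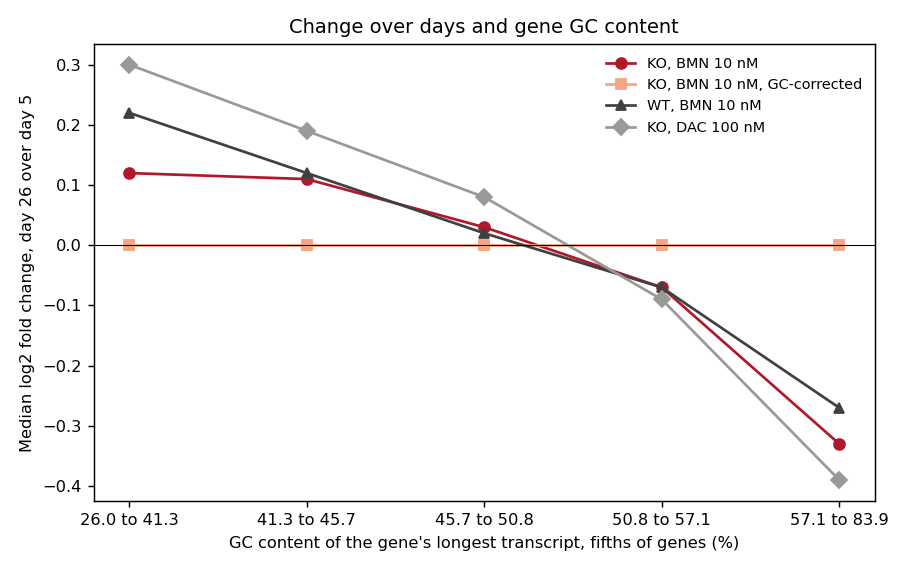
Median log2 fold change of day 26 over day 5 (y axis) in 5 groups of genes of near equal size by GC content of the longest transcript (x axis, percent), for KO cells in BMN with and without GC correction, WT cells in BMN and KO cells in DAC. The KO BMN line runs down from 0.12 to -0.33, the WT BMN line from 0.22 to -0.27, the KO DAC line from 0.30 to -0.39, and the corrected line lies at 0.00 in every group.

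The p53 targets fell. Of 30 tested, 14 fell and 0 rose (9.38% and 8.95% of all genes). The median log2 change was -0.27, against -0.003 over all genes tested, and 13 of the falls were also called with GC correction. CDKN1A, which encodes the cell cycle inhibitor p21 (ENSG00000124762, chromosome 6, 36676460 to 36687337, plus strand), had 78.4 and 73.9 CPM at day 26, against 169 and 176 CPM at day 5. The log2 change was -1.18 ± 0.09 (SE; edgeR quasi-likelihood adjusted p = 1.6e-11). The level at day 16, 61.4 and 60.9 CPM, was already low, and untreated KO cells at day 0 had 116 and 124 CPM. Day 5 was thus the highest of the 4 days sampled, and day 26 lay below day 0 (log2 -0.66, adjusted p = 4.3e-07; corrected -0.26, adjusted p = 3.2e-04). GDF15, a stress-induced cytokine, had 2.18 and 2.47 CPM at day 26, against 6.19 and 6.83 CPM at day 5 (log2 -1.49 ± 0.22, adjusted p = 1.2e-05). PHLDA3, an inhibitor of AKT, had 27.8 and 25.6 CPM at day 26, against 48.1 and 51.9 CPM at day 5 (log2 -0.90 ± 0.12, adjusted p = 3.0e-06). For both genes day 16 was as low as day 26 or lower, at 1.59 and 1.59 CPM for GDF15 and 27.3 and 26.7 CPM for PHLDA3. By list, 12 of the 30 targets were lower and 0 higher at day 16 than at day 5 (4.95% of all genes were lower), and between day 26 and day 16 there were 2 higher and 3 lower (5.08% and 4.24% of all genes). With GC correction the first step had 0 higher and 13 lower (3.37% and 4.21% of all genes) and the second 3 and 3 (9.53% and 6.88%). The comparisons by step share the day 16 libraries.

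Genes of the cell cycle rose by small amounts. Of 46 replication and S phase genes, 17 rose and 3 fell, against 8.95% and 9.38% of all genes, with a median log2 change of 0.15. With GC correction 21 rose and 0 fell, against 10% and 7.43% of all genes, and 12 of the rises were shared. Of 40 mitosis and G2/M genes, 16 rose and 0 fell, with a median of 0.22, and with correction 15 rose, 10 of them shared. The proliferation marker MKI67 had 2009 and 2146 CPM at day 26, against 1478 and 1503 CPM at day 5 (log2 0.48 ± 0.11, adjusted p = 0.0018). Its day 0 replicates, at 1844 and 1239 CPM, lay on both sides of the day 5 values. CLSPN, the adaptor that activates the replication checkpoint kinase CHK1, had 181 and 187 CPM at day 26, against 125 and 124 CPM at day 5 (log2 0.56 ± 0.09, adjusted p = 3.8e-05). MCM10, which helps start replication forks, had 61.1 and 65.2 CPM at day 26, against 44.7 and 43.2 CPM at day 5 (log2 0.52 ± 0.08, adjusted p = 2.7e-05). In each of these 3 genes the later libraries were the higher pair, which choosing called genes favours. The kinesin gene KIF23, needed to divide the cell, had 155 and 158 CPM at day 26, against 117 and 114 CPM at day 5 (log2 0.44 ± 0.07, adjusted p = 2.0e-05). The spindle gene DLGAP5 had 97.8 and 91.9 CPM at day 26, against 67.0 and 65.2 CPM at day 5 (log2 0.52 ± 0.12, adjusted p = 0.0026). These counts leaned on every library. Replication rises numbered 8 without day 26 replicate 1, 11 without day 26 replicate 2, 7 without day 5 replicate 1 and 10 without day 5 replicate 2, and mitosis rises 8, 11, 6 and 9 in the same order.

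The promoters of mitosis genes are known for 2 elements that work as a pair, the CHR (cell cycle genes homology region), bound by the complex that represses them in resting cells, and the CCAAT box, bound by NF-Y. They are shown for 3 mitosis or proliferation genes that rose, from RefSeq (GRCh38.p14), each window running from 250 bases before to 50 bases after the start and written 5′ to 3′ on the gene's strand. Capitals mark TTTGAA or TTCGAA (the CHR) and CCAAT, each searched on both strands. The windows are chr15:69414099-69414398, plus strand for KIF23, chr14:55191536-55191835, minus strand for DLGAP5 and chr10:128126374-128126673, minus strand for MKI67.
KIF23: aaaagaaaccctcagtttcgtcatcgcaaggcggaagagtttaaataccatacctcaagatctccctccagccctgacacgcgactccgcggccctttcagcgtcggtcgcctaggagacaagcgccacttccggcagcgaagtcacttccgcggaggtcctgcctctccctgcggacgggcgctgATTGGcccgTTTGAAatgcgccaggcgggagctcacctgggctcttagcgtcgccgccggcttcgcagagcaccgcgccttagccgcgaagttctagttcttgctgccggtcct
DLGAP5: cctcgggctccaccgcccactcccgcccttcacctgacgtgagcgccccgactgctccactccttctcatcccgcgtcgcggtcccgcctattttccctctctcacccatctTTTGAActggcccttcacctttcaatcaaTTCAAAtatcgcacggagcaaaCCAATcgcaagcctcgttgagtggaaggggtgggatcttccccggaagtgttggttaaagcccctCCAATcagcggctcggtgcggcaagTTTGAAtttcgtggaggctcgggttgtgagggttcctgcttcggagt
MKI67: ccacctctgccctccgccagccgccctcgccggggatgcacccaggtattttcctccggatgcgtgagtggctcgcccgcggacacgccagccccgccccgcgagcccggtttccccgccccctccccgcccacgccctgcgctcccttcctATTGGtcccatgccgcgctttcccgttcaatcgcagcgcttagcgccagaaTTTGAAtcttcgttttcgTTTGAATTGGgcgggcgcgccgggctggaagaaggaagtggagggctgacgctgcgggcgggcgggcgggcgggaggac
KIF23 held 1 CHR and 1 CCAAT match, DLGAP5 3 and 2, and MKI67 2 and 2, with 1 overlap of the motifs in MKI67. The table held 42 promoters for 32 of the 40 mitosis genes, and 27 of the 42 had a CHR match (64.3%), against 16.4% of all 35116 promoters. A CCAAT match was found in 31 of the 42 (73.8%), against 34.6% of all promoters, and both in 23 (54.8%), against 6.4%. The motifs are features of the list and say nothing of what moved between the days.

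Ribosomal protein genes rose as a group, with 21 of 38 higher and 2 lower (8.95% and 9.38% of all genes) and a median log2 change of 0.23. The GC-corrected fit called 24 rises and 1 fall (10% and 7.43% of all genes), with 20 rises shared. RPL6, of the large subunit, had 309 and 320.5 CPM at day 26, against 201 and 219.9 CPM at day 5 (log2 0.58 ± 0.08, adjusted p = 8.4e-06). RPS27, of the small subunit, had 41.9 and 46.5 CPM at day 26, against 27.4 and 29.2 CPM at day 5 (log2 0.64 ± 0.12, adjusted p = 3.4e-04). Both were higher in the later libraries, which the choice of called genes also favours. Ribosomal protein genes have processed pseudogenes that can share reads, so these values are uncertain. At day 5, 22 of the 38 genes were lower than in untreated cells at day 0 and none was higher, while at day 26 there were 9 higher and 12 lower than at day 0, or 6 and 5 with GC correction (25.1% of all genes called, 13.4% higher and 11.7% lower) (11.7% of all genes were called between day 5 and day 0, 5.07% higher and 6.65% lower, and 33.1% between day 26 and day 0, 15.6% higher and 17.5% lower). The number of genes called between day 5 and day 0, 2639, was 817 without day 5 replicate 1 and 1356 without day 5 replicate 2, and the 7463 between day 26 and day 0 were 4855 without day 26 replicate 1. Replication-dependent histone genes were 8 higher and 3 lower of 35, and 12 higher and 2 lower after correction, 7 of the rises being shared. At day 5, 27 of the histone genes were lower and 0 higher than at day 0 (22 and 0 with GC correction). At day 26, 25 were still lower and 0 higher than at day 0 (11 and 3 with GC correction). Histone rises numbered 5 without day 26 replicate 1, 2 without day 26 replicate 2, 0 without day 5 replicate 1 and 2 without day 5 replicate 2, and these genes have near-identical copies that can share reads.

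Among the enzymes that the drug targets and their partners, 6 of 26 genes of PARP and single-strand break repair rose and 0 fell (8.95% and 9.38% of all genes). Their median log2 change was 0.16, and 4 rises were shared with the corrected fit. PARP2 (ENSG00000129484, chromosome 14, 20343615 to 20357904, plus strand), the second target of talazoparib, had 33.9 and 36.9 CPM at day 26, against 24.2 and 25.9 CPM at day 5 (log2 0.50 ± 0.11, adjusted p = 0.001). LIG3, the ligase that seals single-strand breaks, had 91.2 and 98.7 CPM at day 26, against 72.5 and 72.2 CPM at day 5 (log2 0.39 ± 0.07, adjusted p = 1.0e-04). PARP1, the main target, had 383 and 399 CPM at day 26, against 334 and 333 CPM at day 5 (log2 0.23 ± 0.07, adjusted p = 0.016). The PARP1 call was lost without any single one of the 4 libraries (adjusted p of 0.069, 0.13, 0.16 and 0.15 without day 26 replicates 1 and 2 and day 5 replicates 1 and 2). PARG, which removes ADP-ribose chains and whose loss is known to blunt PARP inhibitors, had 68.6 and 64.7 CPM at day 26, against 54.5 and 58.8 CPM at day 5 (log2 0.23, adjusted p = 0.022). Its call ended with GC correction (log2 0.11, adjusted p = 0.27) and without day 26 replicate 1 (0.25), day 5 replicate 1 (0.34) or day 5 replicate 2 (0.051). The count of rises for the list was 3, 4, 3 and 2 without each library in that order.

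Of 21 genes tied to the response to PARP inhibitors, 5 rose and 0 fell, against 8.95% and 9.38% of all genes (median log2 0.14). All 5 rises were shared with the corrected fit, which called 7 rises and 1 fall (10% and 7.43% of all genes). Without each library, in the order above, 4, 5, 3 and 3 rose. TP53BP1, which holds back end resection, had 108 and 110.1 CPM at day 26, against 87.9 and 89.6 CPM at day 5 (log2 0.30 ± 0.07, adjusted p = 0.0035, and 0.072 without day 5 replicate 1). SLFN11, which blocks stalled forks and sensitises cells to these drugs, had 76.3 and 83.1 CPM at day 26, against 87.8 and 86.8 CPM at day 5. The later libraries were lower, but the change did not pass (log2 -0.13 ± 0.07, adjusted p = 0.18) except with GC correction (log2 -0.25, adjusted p = 0.0016). ABCB1, the P-glycoprotein pump that exports talazoparib, stood at 56.2 and 51.7 CPM at day 26 and 50.2 and 48.0 CPM at day 5 (log2 0.14 ± 0.08, adjusted p = 0.29, corrected 0.01). Of 14 efflux transporter genes tested, 8 fell and 2 rose, and with GC correction 5 fell and 0 rose, all 5 shared. The vault protein gene MVP, which does not itself encode a transporter, had 80 and 84.3 CPM at day 26, against 151 and 163 CPM at day 5 (log2 -0.93 ± 0.10, corrected -0.59). ABCC10 had 17.2 and 15.8 CPM at day 26, against 27.1 and 23.8 CPM at day 5 (log2 -0.62 ± 0.13, corrected -0.37). Transporter falls numbered 4 without day 26 replicate 1, day 26 replicate 2 or day 5 replicate 2, and 7 without day 5 replicate 1. Of 45 homologous recombination and Fanconi genes, 8 rose and 4 fell (median log2 0.07). After correction there were 4 and 4, and 2 of the rises and 4 of the falls were shared. RBBP8, which starts end resection, had 72.2 and 70.7 CPM at day 26, against 49.9 and 48.7 CPM at day 5 (log2 0.53 ± 0.10, adjusted p = 3.9e-04). Rises in that list numbered 2, 5, 2 and 2 without each library, and falls 2, 2, 4 and 2.

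**Figure D2:**
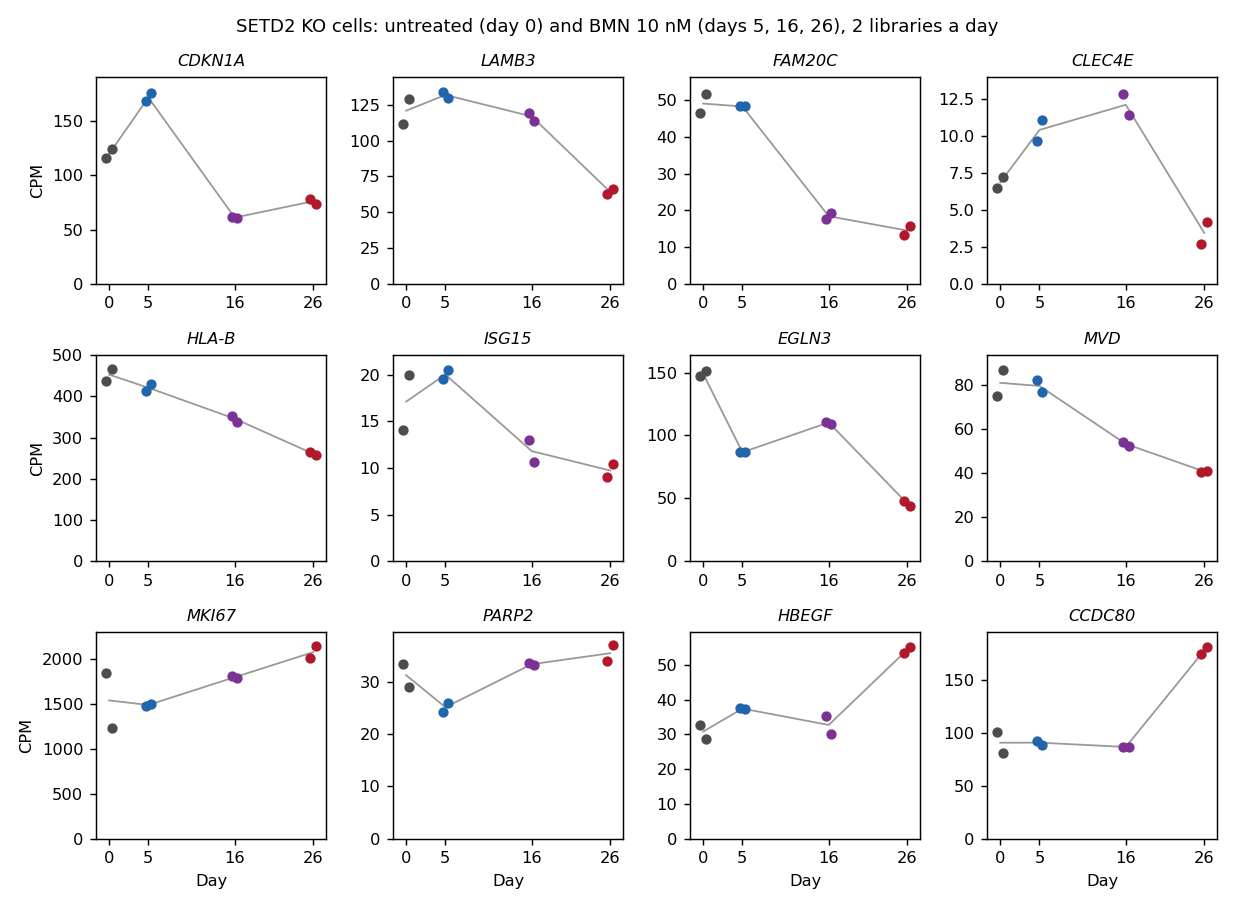
CPM (y axis, from 0) of 12 genes in untreated KO cells at day 0 and KO cells in BMN at days 5, 16 and 26 (x axis); each point is a library and the line joins the means. CDKN1A is highest at day 5, LAMB3 and CLEC4E drop between days 16 and 26, and HBEGF and CCDC80 are highest at day 26.

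Matrix genes fell more often than they rose. Of 40 matrix and collagen genes, 19 fell and 4 rose (9.38% and 8.95% of all genes), with a median log2 change of -0.27. The corrected fit called 15 falls and 7 rises (7.43% and 10% of all genes), with a median of -0.10. Both fits shared 12 falls and 3 rises, and 1 fall became a rise with the correction. FAM20C, the kinase that phosphorylates secreted proteins (ENSG00000177706, chromosome 7, 192571 to 260772, plus strand), had 13.3 and 15.7 CPM at day 26, against 48.4 and 48.3 CPM at day 5 (log2 -1.74 ± 0.16, adjusted p = 3.2e-09). Most of that fall was seen by day 16, at 17.6 and 19.2 CPM. CHPF had 51.3 and 58.6 CPM at day 26, against 163 and 164 CPM at day 5 (log2 -1.57 ± 0.17, corrected -0.97). LAMB3, a laminin chain gene of the epithelial basement membrane, had 62.5 and 66.0 CPM at day 26, against 134 and 129.9 CPM at day 5 (log2 -1.04 ± 0.08, adjusted p = 1.3e-10). At day 16 LAMB3 still had 119.7 and 114 CPM, nearer to its day 5 than to its day 26 level. The collagen VI chain gene COL6A1 had 7.58 and 6.86 CPM at day 26, against 15.9 and 16.8 CPM at day 5 (log2 -1.18 ± 0.13, corrected -0.75), and COL6A3 had 12.3 and 10.8 CPM, against 21.4 and 25.2 CPM (log2 -1.02 ± 0.08). MMP2, a gelatinase, had 7.06 and 9.02 CPM at day 26, against 14.7 and 13.8 CPM at day 5 (log2 -0.83 ± 0.12, adjusted p = 1.0e-05), in a list of 24 metalloproteinases and inhibitors with 8 falls and 1 rise (8 and 2 with correction). CCDC80, a secreted matrix protein gene, went the other way, with 175 and 181 CPM at day 26, against 92.8 and 89.0 CPM at day 5 (log2 0.97 ± 0.09, adjusted p = 3.0e-09). Matrix falls numbered 13 without each of the 4 libraries in turn, and rises 3, 2, 2 and 2.

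Of 36 cytokines and NF-kB targets, 17 fell and 0 rose, against 9.38% and 8.95% of all genes (median log2 -0.39). The corrected fit shared 13 falls and called 15 falls and 1 rise (7.43% and 10% of all genes). The neutrophil attractant gene CXCL5 had 32.7 and 28.4 CPM at day 26, against 59.8 and 48.0 CPM at day 5 (log2 -0.82 ± 0.10, adjusted p = 9.8e-07). The acute phase gene SAA1 had 1.66 and 1.31 CPM at day 26, against 4.94 and 4.33 CPM at day 5 (log2 -1.63 ± 0.22, adjusted p = 4.0e-06), and complement C3 had 4.02 and 4.08 CPM, against 7.23 and 6.57 CPM (log2 -0.77 ± 0.14). CXCL5 still had 60.7 and 64.5 CPM at day 16 and SAA1 4.98 and 3.08 CPM. CLEC4E, a receptor for microbial and dead-cell ligands (ENSG00000166523, chromosome 12, 8533305 to 8540905, minus strand), had 2.70 and 4.18 CPM at day 26, against 9.68 and 11.1 CPM at day 5 (log2 -1.59 ± 0.19, adjusted p = 4.3e-07). CLEC4E is best known from myeloid cells. The blood and endothelial markers given above moved by less than 1 CPM in sum, with members going both ways. ITGAM had 2 and 1 counts at day 26, against 5 and 8 at day 5. CD14 had 18 and 12 counts at day 26, against 8 and 12, and KDR 10 and 16, against 5 and 6. PTPRC and LYZ were at 0, and the part of these markers in the result was not tested.

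Antigen presentation fell late. Of 20 MHC class I genes, 13 fell and 1 rose (9.38% and 8.95% of all genes), with a median log2 change of -0.44. The corrected fit shared 11 falls and called 13 falls and 0 rises (7.43% and 10% of all genes). HLA-B had 265 and 257 CPM at day 26, against 412 and 430 CPM at day 5 (log2 -0.69 ± 0.09, corrected -0.43). HLA-C had 145 and 149 CPM at day 26, against 239 and 244 CPM at day 5 (log2 -0.72 ± 0.11, corrected -0.32). HLA-F had 3.74 and 3.73 CPM at day 26, against 6.82 and 7.41 CPM at day 5 (log2 -0.93 ± 0.16, adjusted p = 1.3e-04). HLA genes are similar enough that reads can be shared. TAPBPL, an editor of the peptides loaded on MHC class I, had 1.99 and 2.82 CPM at day 26, against 5.52 and 5.01 CPM at day 5 (log2 -1.13 ± 0.20, adjusted p = 1.6e-04). By step, 3 of the 20 were lower and 1 higher at day 16 than at day 5 (4.95% and 2.68% of all genes). At day 26, 12 were lower and 0 higher than at day 16 (4.24% and 5.08%). With GC correction the first step leaned the other way, with 0 lower and 4 higher (4.21% and 3.37% of all genes). The corrected second step had 15 lower and 0 higher (6.88% and 9.53%). MHC falls numbered 8 without day 26 replicate 1, 11 without day 26 replicate 2, 11 without day 5 replicate 1 and 10 without day 5 replicate 2. Of 43 interferon-stimulated genes, 8 fell and 2 rose (median log2 -0.14), and all 8 falls were shared with the corrected fit, which called 12 falls and 0 rises. ISG15, a ubiquitin-like modifier, had 9 and 10.4 CPM at day 26, against 19.5 and 20.5 CPM at day 5 (log2 -1.04 ± 0.17, corrected -0.62). BST2, which tethers budding virus, had 67.6 and 69.6 CPM at day 26, against 132 and 130.2 CPM at day 5 (log2 -0.94 ± 0.07, adjusted p = 7.9e-12). The thymidine phosphorylase gene TYMP, also induced by interferon, had 2.51 and 2.87 CPM at day 26, against 6.76 and 7.35 CPM at day 5 (log2 -1.39 ± 0.20, adjusted p = 9.0e-06).

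**Figure D3:**
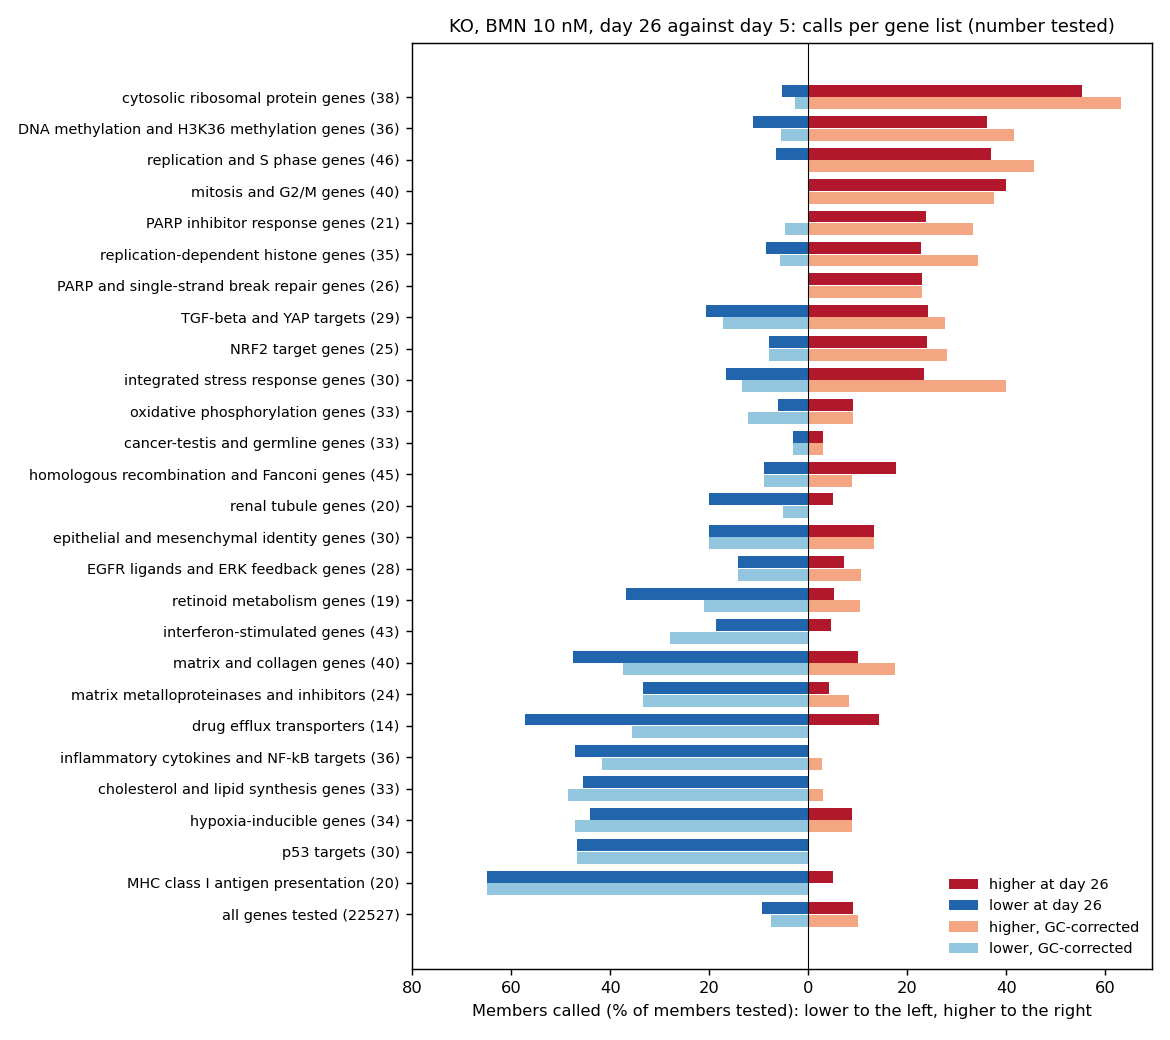
Share of the tested members of each list (in parentheses) that were higher (right) or lower (left) at day 26 than at day 5 in KO cells under BMN, in percent, with and without GC correction; the lowest row gives all 22527 genes tested. MHC class I, p53, hypoxia, cholesterol and NF-kB lists extend to the left and ribosomal, replication and mitosis lists to the right, beyond the row of all genes in both fits.

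Hypoxia-inducible genes fell. Of 34 tested, 15 fell and 3 rose, against 9.38% and 8.95% of all genes (median log2 -0.22). The corrected fit called 16 falls and 3 rises (7.43% and 10% of all genes), and 15 falls and 2 rises were shared. The prolyl hydroxylase gene EGLN3, a feedback inhibitor that hypoxia-inducible factors switch on, had 48.0 and 43.8 CPM at day 26, against 86.7 and 86.6 CPM at day 5 (log2 -0.92 ± 0.07, adjusted p = 2.6e-10). Its days 0 and 16 were higher than either, at 147 and 151 CPM and at 111 and 109 CPM. The carbonic anhydrase gene CA12 had 205 and 211 CPM at day 26, against 304 and 310.2 CPM at day 5 (log2 -0.56 ± 0.05, adjusted p = 1.1e-08). DDIT4, which restrains mTORC1, had 366 and 373 CPM at day 26, against 604 and 625 CPM at day 5 (log2 -0.73 ± 0.07, adjusted p = 2.1e-08). The lactate exporter gene SLC16A3 had 247 and 255 CPM at day 26, against 419.9 and 434 CPM at day 5 (log2 -0.77 ± 0.12, corrected -0.37). At day 16 the list had 7 members higher and 4 lower than at day 5 (2.68% and 4.95% of all genes). At day 26 it had 2 higher and 15 lower than at day 16 (5.08% and 4.24%). With GC correction the first step had 9 higher and 3 lower (3.37% and 4.21% of all genes) and the second 3 and 19 (9.53% and 6.88%). EGLN3, CA12 and DDIT4 were each higher at day 16 than at day 5 (log2 0.35, 0.25 and 0.27, the last being 0.46 with GC correction). Sterol and lipid synthesis genes fell too, with 15 of 33 lower and 0 higher (median log2 -0.27) and 12 falls shared after correction, which gave 16 falls, 1 rise and a median of -0.14. MVD, of the mevalonate pathway, had 40.5 and 40.9 CPM at day 26, against 82.3 and 76.7 CPM at day 5 (log2 -0.96 ± 0.11, corrected -0.53). LSS, lanosterol synthase, had 83.8 and 84.3 CPM at day 26, against 132 and 134 CPM at day 5 (log2 -0.66 ± 0.10, corrected -0.42). The fatty acid synthase gene FASN had 516 and 521 CPM at day 26, against 792 and 801 CPM at day 5, and its log2 change of -0.62 ± 0.12 shrank to -0.11 (adjusted p = 0.036) with correction. Lipid falls numbered 9 without day 26 replicate 2 and 11 to 13 without each of the other libraries.

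Of 19 retinoid genes, 7 fell and 1 rose (9.38% and 8.95% of all genes). With GC correction 4 fell and 2 rose (7.43% and 10% of all genes), with 4 falls and 1 rise shared. ALDH1A1, which makes retinoic acid, had 236 and 245 CPM at day 26, against 155 and 157 CPM at day 5 (log2 0.62 ± 0.06, adjusted p = 1.9e-09), and stood at 320.5 and 293 CPM at day 0. DHRS3, which turns retinal back to retinol, had 4.59 and 5.29 CPM at day 26, against 10.5 and 11 CPM at day 5 (log2 -1.12 ± 0.12, adjusted p = 8.0e-08), below its 30.9 and 32.3 CPM at day 0. The falls of the list numbered 2 without day 26 replicate 1 and 4 or 5 without each of the other libraries. Of the growth factor genes followed, HBEGF, an EGFR ligand, had 53.4 and 55.2 CPM at day 26, against 37.5 and 37.2 CPM at day 5 (log2 0.54 ± 0.09, adjusted p = 7.7e-05). TGFA, another ligand of the same receptor, had 231 and 237 CPM at day 26, against 388 and 386 CPM at day 5 (log2 -0.73 ± 0.05, adjusted p = 1.4e-11). The YAP target ANKRD1 had 93.9 and 88.4 CPM at day 26, against 58.9 and 61.2 CPM at day 5 (log2 0.60 ± 0.09, adjusted p = 6.6e-06), while PMEPA1, a feedback inhibitor of TGF-beta signalling, had 140.4 and 144 CPM, against 219 and 230.3 CPM (log2 -0.66 ± 0.08). Of 29 TGF-beta and YAP targets, 7 rose and 6 fell (8 and 5 with GC correction), and 5 rose and 2 fell without day 26 replicate 1. By step, 0 were higher and 12 lower at day 16 than at day 5 (2.68% and 4.95% of all genes). At day 26, 12 were higher and 1 lower than at day 16 (5.08% and 4.24%). With GC correction the first step had 2 higher and 12 lower (3.37% and 4.21% of all genes) and the second 14 and 2 (9.53% and 6.88%). These comparisons share the day 16 libraries. FZD8 had 3.13 and 3.23 CPM at day 26, against 10.2 and 10 CPM at day 5 (log2 -1.67 ± 0.22), and C1QTNF1 had 9.42 and 9.38 CPM, against 24.5 and 28.7 CPM (log2 -1.50 ± 0.13). The kidney cadherin gene CDH6 had 109 and 105 CPM at day 26, against 154 and 160.2 CPM at day 5 (log2 -0.56 ± 0.07). At the low end, INSYN2B had 6.44 and 6.25 CPM at day 26, against 2.76 and 2.97 CPM at day 5 (log2 1.15 ± 0.20), MSR1 had 5.26 and 5.44 CPM, against 3.17 and 2.50 CPM (log2 0.91 ± 0.19), and SLC7A2 had 10.5 and 8.87 CPM, against 5.05 and 2.87 CPM (log2 1.29 ± 0.21). SLC7A2 remained below its 26.4 and 30.0 CPM at day 0 (log2 -1.54, adjusted p = 4.8e-08).

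In the machinery of DNA and H3K36 methylation, 13 of 36 genes rose and 4 fell, against 8.95% and 9.38% of all genes (median log2 0.12). The corrected fit called 15 and 2, against 10% and 7.43% of all genes, and 11 rises and 1 fall were shared. DNMT1, the maintenance methyltransferase, had 367 and 378 CPM at day 26, against 310.4 and 324 CPM at day 5 (log2 0.23 ± 0.07, adjusted p = 0.012, corrected log2 0.38). That call was lost without any single library (adjusted p of 0.077, 0.093, 0.24 and 0.074 without day 26 replicates 1 and 2 and day 5 replicates 1 and 2). DNMT3B, a de novo methyltransferase, had 32.1 and 34.1 CPM at day 26, against 47.2 and 47.3 CPM at day 5 (log2 -0.51 ± 0.10, adjusted p = 3.0e-04). The rise of SETD2 (log2 0.28 ± 0.07, adjusted p = 0.0061) ended with GC correction (log2 0.15, adjusted p = 0.088), without day 26 replicate 1 (0.057) and without day 5 replicate 1 (0.098). The list's rises numbered 9, 12, 8 and 10 without each library in the same order. Of 33 cancer-testis and germline genes, 1 rose and 1 fell. Of 30 integrated stress response genes, 7 rose and 5 fell, and with GC correction 12 rose and 4 fell. Their rises numbered 3, 6, 3 and 2 without each library in the same order. Of 25 NRF2 targets, 6 rose and 2 fell (7 and 2 with correction), and of 33 oxidative phosphorylation genes 3 rose and 2 fell (3 and 4 with correction). There were 2 rises and 4 falls among 28 EGFR ligand and ERK feedback genes (3 and 4 with correction) and 4 and 6 among 30 epithelial and mesenchymal genes. Of 20 renal tubule genes 1 rose and 4 fell, against 0 and 1 with correction, and 0, 1, 3 and 2 fell without each library. RN7SL3, a signal recognition particle RNA gene with near-identical copies, had 8.33 and 10.5 CPM at day 26, against 37.4 and 34.4 CPM at day 5 (log2 -1.93 ± 0.33), and its untreated replicates at day 0 stood far apart, at 12.9 and 52.9 CPM.

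Set against day 16, the change was spread over both steps. Of the 2017 genes higher at day 26 than at day 5, 303 were also called higher at day 16 than at day 5 and 700 higher at day 26 than at day 16, while 1034 were called in neither step. Of the 2113 lower genes, 642 were called lower in the first step and 573 in the second, with 923 in neither. In all, 1720 genes were called between day 16 and day 5 (7.64%) and 2099 between day 26 and day 16 (9.32%), the second count becoming 3697 with GC correction (16.4%). The first count was 644 without day 5 replicate 1 and 411 without day 5 replicate 2, and the second was 1047 without day 26 replicate 1 and 1007 without day 26 replicate 2. The change between day 26 and day 16 had the weaker relation to GC content (r = -0.144, against -0.565 between day 16 and day 5).

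The same days in WT cells under BMN asked which changes belonged to the KO line. In WT cells 4963 genes changed (22%), and the change differed between the lines in 1009 genes (4.48%), 309 with a higher change in KO (1.37%) and 700 with a lower one (3.11%). That count was 490 without KO day 26 replicate 2, 532 without KO day 5 replicate 1 and 588 without KO day 5 replicate 2. With GC correction the difference was called in 2450 genes (10.9%), 1167 higher (5.18%) and 1283 lower (5.7%) in KO. No p53 target and no MHC class I gene passed this test, while with correction 2 p53 targets and 3 MHC class I genes had a lower change in KO and 1 MHC class I gene a higher one. The CDKN1A change in WT was -1.21 on the log2 scale, with 58.9 and 69.4 CPM at day 26 against 151 and 145 CPM at day 5. The difference for CDKN1A was 0.03 ± 0.12 (corrected 0.07), and it did not pass in either fit. The LAMB3 fall was steeper in KO. LAMB3 had 26.2 and 29.7 CPM at day 26 and 35.6 and 34.3 CPM at day 5 in WT (log2 -0.32 ± 0.09, adjusted p = 0.01, but -0.11 and 0.21 with GC correction), a difference between KO and WT of -0.72 ± 0.12 (adjusted p = 3.7e-04). CLEC4E stood at 1.60 and 1.71 CPM at day 26 and 1.53 and 1.36 CPM at day 5 in WT, with a difference of -1.79 ± 0.35 (adjusted p = 0.0014). ALDH1A1 rose in KO and had 581 and 586 CPM at day 26 and 617 and 605 CPM at day 5 in WT (log2 -0.07, not called, but -0.21 and called with GC correction, adjusted p = 0.0014; difference 0.69 ± 0.08, adjusted p = 1.5e-06). TXNIP, a glucose-responsive inhibitor of thioredoxin, moved in opposite directions. It had 28.4 and 26.5 CPM at day 26, against 22 and 19.5 CPM at day 5 in KO (log2 0.41 ± 0.09, adjusted p = 0.0013, and 0.075 without day 5 replicate 2), and 14.6 and 14.4 CPM, against 26.4 and 25.1 CPM in WT (log2 -0.83 ± 0.09). The difference for TXNIP was 1.23 ± 0.13 (adjusted p = 2.8e-07).

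Members of several lists had changes that differed between the lines. Over all genes, 1.37% had a higher and 3.11% a lower change in KO, or 5.18% and 5.7% with GC correction. Of 38 ribosomal protein genes, 13 had a change that was more positive in KO than in WT and none a more negative one (22 and none with GC correction). The median difference was 0.28, against -0.018 over all genes. In WT cells 1 rose and 13 fell (11.7% and 10.3% of all genes), or 1 and 11 with GC correction. Of 35 histone genes, 11 differed toward KO and none the other way (median 0.34), or 19 with correction. In WT there were 0 rises and 20 falls (0 and 16 with correction). Of 40 mitosis genes, 4 differed, all toward KO (median 0.20), and with GC correction the count was 20. In the NF-kB list 4 differed, all lower in KO (median -0.35; 8 with correction), and in the matrix list 2 were higher and 7 lower in KO (4 and 9 with correction). The hypoxia list had 4 higher and 2 lower in KO (9 and 2 with correction), among them DDIT4, whose fall was larger in WT (142 and 146 CPM at day 26 and 338 and 342 CPM at day 5, log2 -1.24 ± 0.08, difference 0.51 ± 0.11, adjusted p = 0.0031).

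The same line and days under DAC gave the other comparison. The change differed between BMN and DAC in 3371 genes (15%), 1680 higher (7.46%) and 1691 lower (7.51%) under BMN, and in 5147 (22.8%) with GC correction. CDKN1A had 138 and 151 CPM at day 26 and 138 and 126 CPM at day 5 under DAC (log2 0.13 ± 0.08, adjusted p = 0.25). With GC correction that was a called rise of 0.38 (adjusted p = 2.2e-07), and the difference between BMN and DAC was -1.31 ± 0.12 (adjusted p = 6.3e-10). Of 43 interferon-stimulated genes, 41 had a lower change under BMN than under DAC, where 41 rose (43 with GC correction). Under DAC alone, 35.9% of all genes changed between these days, 18.1% higher and 17.8% lower. ISG15 had 164 and 172 CPM at day 26 and 59.4 and 49.4 CPM at day 5 under DAC (difference -2.67 ± 0.21, adjusted p = 2.6e-11). HBEGF rose under BMN and fell under DAC, to 28.0 and 28.9 CPM at day 26, against 80.3 and 75.4 CPM at day 5 (difference 1.99 ± 0.13, adjusted p = 2.1e-13). COL6A1 fell under BMN and rose under DAC, with 274 and 287 CPM at day 26, against 113 and 101 CPM at day 5 (difference -2.57 ± 0.16, adjusted p = 4.8e-14). CXCL5 and DHRS3 fell in both, further under DAC (log2 -1.58 and -2.63, differences of 0.77 and 1.51, adjusted p = 2.4e-04 and 2.7e-07). EGLN3 and MVP, which fell under BMN, had DAC changes of 0.06 and -0.05, neither passing, and of 0.02 and 0.34 with GC correction, where MVP rose (adjusted p = 1.9e-07; uncorrected differences of -0.98 and -0.89, adjusted p = 1.1e-08 and 2.1e-05). PARP1 fell under DAC, with 271 and 273 CPM at day 26, against 410.1 and 369.6 CPM at day 5 (difference 0.75 ± 0.10, adjusted p = 7.8e-07). FAM20C, C1QTNF1 and GDF15 had falls that did not pass the test of a difference between the drugs (differences of -0.39, -0.20 and -0.54 on the log2 scale, adjusted p = 0.41, 0.52 and 0.21). A p that misses the threshold does not show that the changes were alike.

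**Figure D4:**
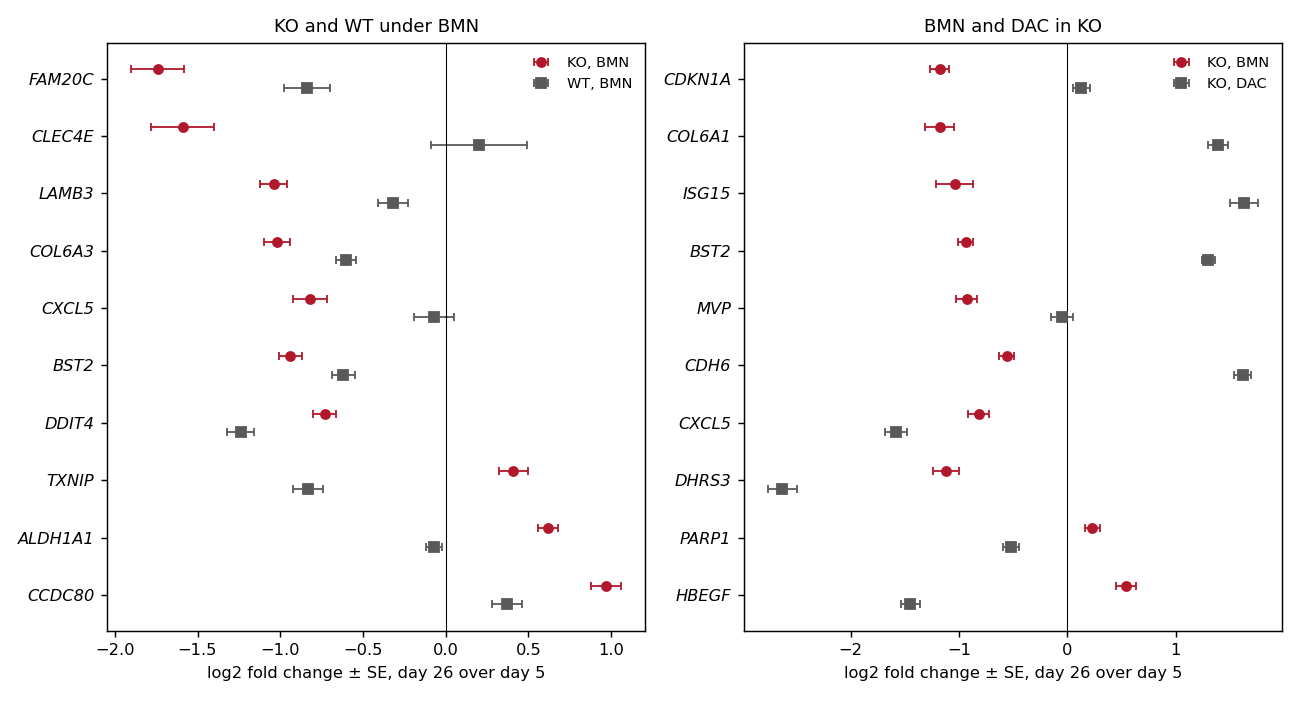
Log2 fold change of day 26 over day 5 with its SE (x axis) for named genes (y axis), in KO under BMN (circles) beside WT under BMN (squares, left) and beside KO under DAC (squares, right). TXNIP lies at 0.41 in KO and -0.83 in WT, and ISG15 at -1.04 under BMN and 1.63 under DAC.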

How the data were processed

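Total RNA of 786-0 cells was sequenced from libraries made with the KAPA RNA HyperPrep kit (source: the labels' protocols). The authors deposited whole-number read counts per gene, made with featureCounts per the file headers, on GRCh38 with Ensembl 104 genes, keeping primary alignments of mapping quality 20 or more and reading strand (setting 1). The header also set duplicate reads to be ignored. The submitters' processing notes also name FastQC, Trimmomatic and Partek, and the aligner's settings are not given in the sources used here. The deposited table held 60664 genes, and its 37 mitochondrial genes had 0 counts in every library. Total counts were 17833960 to 22631101 over the 40 libraries, with 2 libraries in each of 20 groups.

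All 40 libraries entered 1 quasi-likelihood fit in edgeR 4.0.16 (R 4.3.3, limma 3.58.1) with a mean per group, TMM scaling and a filter on low counts (minimum count 10, minimum total 15), which left 22527 genes. The fit had 20 residual degrees of freedom, and every contrast was two-sided, with Benjamini-Hochberg adjustment over all genes tested and a threshold of 0.05. CPM are TMM-scaled counts per 1000000. In the GC-corrected fit, each library's log2 ratio to the mean of all libraries was fitted by a natural spline (5 degrees of freedom) on the GC content of each gene's longest GENCODE 29 transcript and entered as an offset, and 98.5% of tested genes had a GC value. On simulated counts for day 26 against day 5, 43 of 67 genes changed 1.5-fold (64.2%) and 58 of 67 changed 2-fold (86.6%) were recovered. All 66 changed 4-fold were recovered too, and there were 17 false calls. Those counts were drawn independently for each library, with no GC trend between replicates and few genes changed, none of low mean. The rates may not carry over to these data, where replicates differed along GC content and 18.3% of genes were called.

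Genes were named by size (15 in each direction with a symbol, 3 counts or more in each of the 4 libraries, 5 CPM or more on the higher day and days that did not overlap), by list (up to 4 called members of each of 29 lists) and by difference between lines or drugs (up to 6 in each direction). SETD2, PARP1, PARP2, PARG, SLFN11, ABCB1, TP53BP1, CDKN1A, MKI67 and DNMT1 were always named, called or not. The rule gave 161 genes, and the text follows 62 of them, picked after their values were seen. For genes named by size, days that do not overlap were a condition of the choice and are no support for the change. Genes named by list were chosen as called, so days that do not overlap add no support for them either. Some named genes are not reported here. The members, lists and rules were chosen with earlier results of these data known. Replicate numbers were not used as pairs in the main fit. The deviations of same-numbered libraries correlated at -0.063 (days 5 and 16), 0.08 (days 5 and 26) and -0.098 (days 16 and 26). These deviations also followed GC content (r of -0.17, 0.216 and -0.362 at days 5, 16 and 26). The check therefore cannot tell whether same-numbered libraries shared a culture. Alternatives were DESeq2 1.42.0, other scalings and filters, other sets of libraries, a replicate block, a test against a fold of 1.2 and leaving out each library.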

Additional observations from a re-analysis of the deposited data

Results flagged for a closer look

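In each of the following genes, the change over days under BMN differed between the KO and the WT line by a test of the difference itself (edgeR quasi-likelihood, adjusted over all genes tested), and the difference also passed with GC correction. Differences are KO minus WT of the log2 change of day 26 against day 5.

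Among the matrix genes, the difference was -0.72 for LAMB3 (adjusted p = 3.7e-04), -0.42 for COL6A3 (0.015) and -0.90 for FAM20C (0.0086), with larger falls in KO than in WT, where the LAMB3 change of -0.32 was -0.11 with GC correction (adjusted p = 0.21). CCDC80 rose more in KO, with a difference of 0.60 (0.0028). It was -1.79 for CLEC4E (0.0014), -0.75 for CXCL5 (0.0035), -0.71 for C1QTNF1 (0.044) and -0.32 for BST2 (0.041). DDIT4 fell less in KO, with a difference of 0.51 (0.0031), and TGFA fell more, with one of -0.29 (0.019). ABCC10 had a difference of -0.77 (0.007), ALDH1A1 one of 0.69 (1.5e-06) and TXNIP one of 1.23 (2.8e-07). SLC7A2 had a difference of 3.62 (0.03), but WT cells were near 0 CPM on both days, so its size depends on the prior count.

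The differences for C1QTNF1 and BST2 were lost without any single one of the 4 KO libraries (adjusted p up to 0.23 and 0.29). Those for FAM20C and TGFA were lost without day 26 replicate 1 or either day 5 replicate (up to 0.12 and 0.19). COL6A3 lost its call without day 26 replicate 2 or day 5 replicate 2 (up to 0.29), ABCC10 without day 26 replicate 2 or day 5 replicate 1 (up to 0.097), and CXCL5 without day 5 replicate 1 (0.063). The calls of the other genes named here passed without each KO library in turn. No WT library was left out, so how far the differences lean on single WT libraries was not tested. The WT BMN replicates differed along GC content with r of -0.62 at day 26 and 0.054 at day 5.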

How the results depend on the processing

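The 4130 genes called between day 26 and day 5 became 6329 in a fit of the 6 libraries of the KO BMN arm, 979 against a fold of 1.2 and 2084 to 2662 when each library was left out. Those at least 2-fold changed, 395, became 242 with GC correction and replicate block, 256 at a mean of at least 1 CPM and 229 against a fold of 1.2, and 269 to 347 when each library was left out. Day 16 against day 5 gave 1720 genes, and 3250 in the 20 KO libraries, 4111 in the 6 arm libraries, 907 with the replicate block and 411 to 1581 with a library left out. Day 26 against day 16 gave 2099, and 3697 with GC correction, 3251 with GC correction and block, 3366 in the 20 KO libraries, 4154 in the 6 arm libraries and 1007 to 1961 with a library left out. The difference between KO and WT gave 1009, and 2450 with GC correction, 1944 with GC correction and block, 592 with the block and 490 to 715 with a KO library left out. The difference between BMN and DAC gave 3371, and 5147 with GC correction. Day 26 against day 0 gave 7463, and 4681 with GC correction and block and 4855 to 7254 with a library left out. Day 5 against day 0 gave 2639, and 4252 in the 20 KO libraries, 1396 with the block and 817 to 2636 with a library left out. The cause of these shifts was not tested, beyond the smaller number of libraries in some fits.

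The replicate block, whose need the check of pairing cannot decide, gave 3267 genes for day 26 against day 5. Of the 62 genes followed, 60 were called. No direction reversed under any alternative, DESeq2 and both other scalings kept every call, GC correction ended 2 (SETD2 and PARG) and added 1 (SLFN11), and the fold-1.2 test ended 10. Leaving out a library ended 2 to 5 calls, of 6 genes in all. With 2 libraries a group, 64.2% of genes changed 1.5-fold were recovered in simulated counts, which held no GC trend between replicates.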
